A study of Homo sapiens with 4 samples.

Results

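The aminoacyl-tRNA synthetases described here are 35 genes, 19 that encode cytosolic enzymes or subunits and 16 that encode mitochondrial enzymes. They were taken from the 20263 rows of a table of read counts by matching Ensembl identifiers to symbols. The RNA came from HCT116, a human colorectal carcinoma cell line, grown for 24 h with HJJ_3_5 (2 samples) or with DMSO, the solvent (2 samples). The series title calls HJJ_3_5 a derivative of piperine, the pungent alkaloid of black pepper. No source used here states its dose. No label tells whether samples 1 and 2 of a group were separate cultures. The p-values set the difference between groups against the spread between samples, and that spread may be technical.

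A synthetase joins an amino acid to the transfer RNAs (tRNAs) that carry its anticodons, and the ribosome then reads these charged tRNAs. The cytosol and the mitochondrion translate separately. Most amino acids therefore have a cytosolic enzyme, with a symbol ending in 1, and a mitochondrial enzyme encoded by another nuclear gene, with a symbol ending in 2. GARS1 and KARS1 each supply both compartments, EPRS1 is a fused enzyme for glutamate and proline, and FARSA and FARSB encode the 2 subunits of the cytosolic phenylalanine enzyme. Many cytosolic synthetase genes are known targets of ATF4, the transcription factor of the integrated stress response to amino acid shortage.

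The libraries held between 29211120 and 36455176 counts. All 35 synthetases passed the filter on low counts, and the lowest count of any of them in a library was 174. Levels are CPM, counts brought to a common library size with TMM (trimmed mean of M-values) factors, and ± after a level is an SD (n = 2). Fold changes are HJJ_3_5 over DMSO on the log2 scale with standard errors, and a gene was called at a Benjamini-Hochberg adjusted p below 0.05 over all 14180 genes tested (edgeR quasi-likelihood test). The epithelial markers EPCAM, KRT8, KRT18, KRT19 and CDH1 were all present, and their summed level with VIL1, which was below 1 CPM, was 5819 and 4913 CPM with HJJ_3_5 and 4754 and 4323 CPM with DMSO. The 11 markers of leukocytes, endothelium and fibroblasts summed to 64.5 and 62.6 CPM with HJJ_3_5 and 111 and 103 CPM with DMSO, nearly all of it CD68 and COL1A1. PTPRC and DCN were at 0 in all 4 libraries, and CD3E, PECAM1, CDH5, COL1A2 and COL3A1 were below 1 CPM in each. COL1A1 fell by 0.82 on the log2 scale and LYZ, at 1.07 and 0.84 CPM with HJJ_3_5 and 0.14 and 0.18 CPM with DMSO, rose. The part of either in the synthetase values was not tested. In RNA from a whole culture, less RNA per cell and fewer cells that express a gene cannot be told apart.

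Synthetase mRNAs moved in both directions. With HJJ_3_5, 5 of the 35 rose (FARSA, MARS1, VARS1, PARS2 and MARS2), 2 fell (SARS1 and GARS1), and 28 did not pass the test. That is 20% called, against 17.4% of all genes tested. Among all genes 9.17% were higher and 8.27% were lower. Of the 19 cytosolic genes 3 were higher and 2 lower, and their median log2 fold change was -0.17. Of the 16 mitochondrial genes 2 were higher and 0 lower (median 0.12), and the median of all genes tested was 0.001. At an unadjusted p below 0.05, 4 mitochondrial genes were higher and 2 lower (IARS2 and WARS2). At that p 4 cytosolic genes were higher and 5 lower. Of all 14180 genes 2813 were higher and 2765 lower at that p. DESeq2 called 3 mitochondrial genes higher and 1 lower, and limma-voom 2 and 0. For cytosolic genes the calls were 4 and 5 with DESeq2 and 3 and 2 with limma-voom. Of all genes DESeq2 called 1839 higher and 2161 lower, and limma-voom 1281 and 1212. With library totals in place of TMM factors the median fold change moved up by 0.187 on the log2 scale, and of all genes 2614 were then higher and 818 lower (76.2% higher, against 52.6%). The cytosolic median turned to 0.016 on that scale and the mitochondrial median became 0.31, with 4 cytosolic and 4 mitochondrial genes higher and 1 cytosolic gene lower. The 2 groups of libraries did not overlap for 26 of the 35 genes (74.3%), against 69.0% of all genes.

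**Figure D1:**
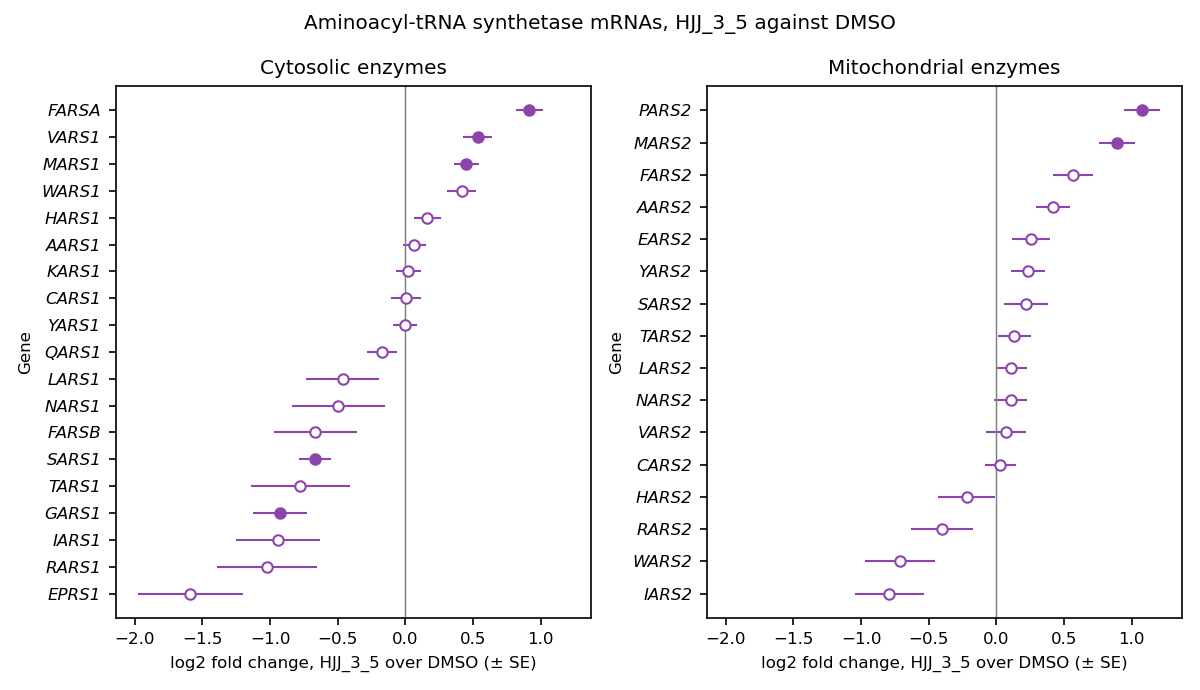
The log2 fold change of each synthetase mRNA (HJJ_3_5 over DMSO, horizontal axis) with its standard error, for the 19 cytosolic genes on the left and the 16 mitochondrial genes on the right. Filled points passed the test (adjusted p below 0.05); EPRS1, at -1.59, has the lowest value of all but is not filled, since its standard error was 0.39.

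SARS1, which charges serine tRNAs and the selenocysteine tRNA (ENSG00000031698, GRCh38 chromosome 1, 109213918 to 109238169), had 97.2 and 108.7 CPM in the HJJ_3_5 libraries, against 154 and 173 CPM in the DMSO libraries. It fell by 0.67 ± 0.12 on the log2 scale (adjusted p = 0.0348). GARS1, the glycine enzyme (ENSG00000106105, chromosome 7, 30594681 to 30634033), had 94.4 and 132.6 CPM in the HJJ_3_5 libraries, against 199 and 233 CPM in the DMSO libraries. It fell by 0.93 ± 0.20 (adjusted p = 0.0445). Neither gene's groups overlapped, and the samples of a group lay closer together for SARS1 than for GARS1. GARS1 was not called with library totals (-0.74, adjusted p = 0.0574). GARS1 also shares exon bases with the divergent transcript GARS1-DT on the other strand. No source used here gives the strand setting of the counting, so reads of the 2 transcripts could be mixed.

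FARSA, the catalytic subunit of the phenylalanine enzyme (ENSG00000179115, chromosome 19, 12922479 to 12934037), rose most among the cytosolic genes. It had 125 and 119 CPM in the HJJ_3_5 libraries, against 64.6 and 64.7 CPM in the DMSO libraries, a log2 fold change of 0.92 ± 0.10 (adjusted p = 0.0273). MARS1, the methionine enzyme that also charges the initiator tRNA (ENSG00000166986, chromosome 12, 57475445 to 57517569), had 176 and 171 CPM with HJJ_3_5 and 130 and 124 CPM with DMSO, a log2 fold change of 0.45 ± 0.09 (adjusted p = 0.0408). VARS1, the valine enzyme (ENSG00000204394, chromosome 6, 31777518 to 31795953), had 345 and 307 CPM with HJJ_3_5 and 236 and 214 CPM with DMSO, a log2 fold change of 0.53 ± 0.11 (adjusted p = 0.0417). In each of these genes both HJJ_3_5 libraries lay above both DMSO libraries, and samples of a group differed by far less than the groups did. MARS1 shares exon bases on the other strand with DDIT3, which encodes the stress factor CHOP and which went the other way, with 22.8 and 22.1 CPM in HJJ_3_5 libraries and 91.0 and 67.0 CPM in DMSO libraries. FARSA shares exon bases with FARSA-AS1 on the other strand.

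The 2 mitochondrial genes that rose were PARS2 and MARS2, the proline and methionine enzymes. PARS2 (ENSG00000162396, chromosome 1, 54756898 to 54764514) had 20.7 and 22.3 CPM in the HJJ_3_5 libraries, against 10.42 and 9.92 CPM in the DMSO libraries. Its log2 fold change was 1.08 ± 0.13 (adjusted p = 0.0273), the highest of the 35 genes. MARS2 (ENSG00000247626, chromosome 2, 197705369 to 197708387) had 21.0 and 20.1 CPM in the HJJ_3_5 libraries, against 11.5 and 10.6 CPM in the DMSO libraries, a log2 fold change of 0.89 ± 0.13 (adjusted p = 0.0293). Per kilobase of transcript they ranked 33 and 35 of the 35 genes with DMSO. Methionine was the only amino acid for which both the cytosolic and the mitochondrial gene were called, and both were higher.

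**Figure D2:**
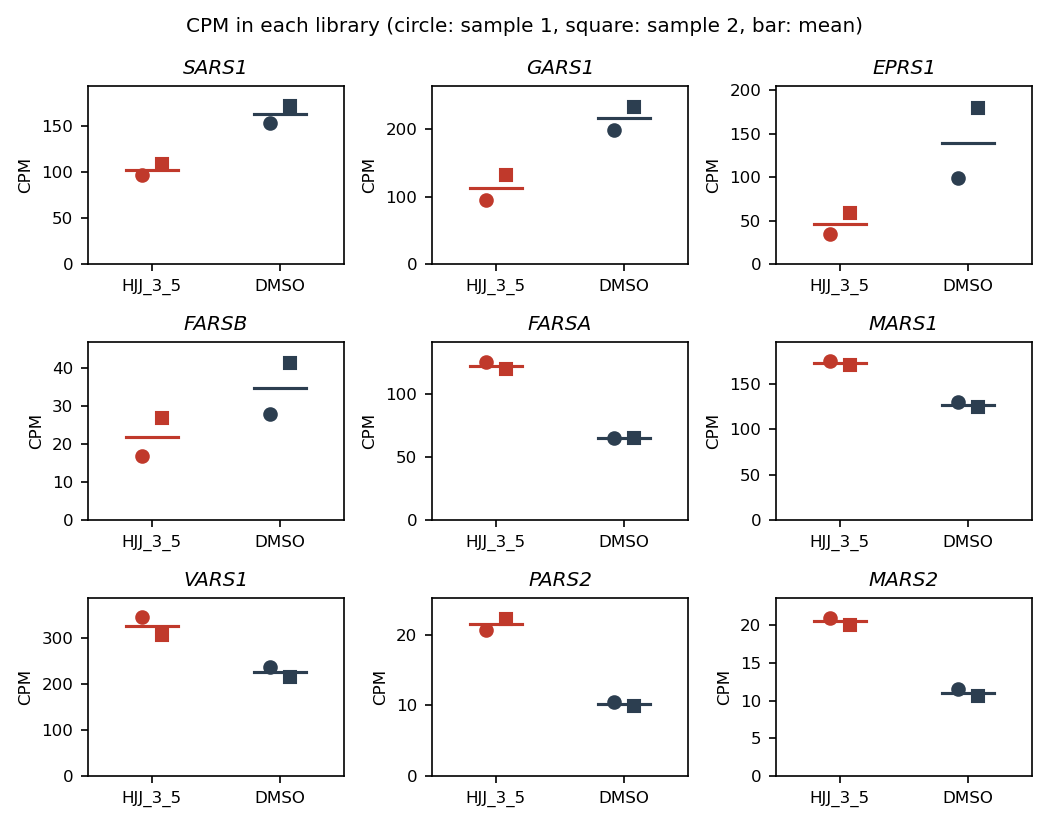
CPM (vertical axis, from 0) in each library for the 7 called genes and for EPRS1 and FARSB, with HJJ_3_5 on the left in red and DMSO on the right in dark blue; circles are sample 1, squares sample 2 and bars the mean of 2. FARSA, MARS1, PARS2 and MARS2 have close pairs of points in each group, while EPRS1 ranges from 34.4 to 58.2 CPM with HJJ_3_5 and from 99.6 to 179 CPM with DMSO.

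None of the 7 calls was kept when DMSO 1, DMSO 2 or HJJ_3_5 1 was left out. Those fits leave 1 sample in a group, whose spread is then assumed to be that of the other group. In these fits 0 synthetases were called, and of all genes 12 were higher and 40 lower without DMSO 1, 0 and 4 without DMSO 2, and 0 and 0 without HJJ_3_5 1. Cytosolic and mitochondrial genes below an unadjusted p of 0.05 numbered 10 and 3 without DMSO 1, 5 and 2 without DMSO 2, and 7 and 2 without HJJ_3_5 1. Of all genes 1739 were higher and 2194 lower at that p without DMSO 1 (14472 tested), 1628 and 1664 without DMSO 2 (14499 tested), and 2054 and 2249 without HJJ_3_5 1 (14463 tested). Without HJJ_3_5 2, 2 cytosolic genes (FARSA and VARS1) and 2 mitochondrial genes (PARS2 and MARS2) were higher. In that fit 5 cytosolic genes (GARS1, SARS1, EPRS1, IARS1 and RARS1) and 2 mitochondrial genes (IARS2 and WARS2) were lower. The directions of the 7 called genes were the same in all of these fits. The log2 fold change of FARSA stayed between 0.88 and 0.95, that of PARS2 between 1.02 and 1.13, that of MARS2 between 0.83 and 0.95 and that of SARS1 between -0.75 and -0.58. GARS1 ranged from -1.20 to -0.71, VARS1 from 0.45 to 0.61 and MARS1 from 0.42 to 0.48.

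Several synthetases with large negative fold changes did not pass the test, and all of them differed widely between the samples of a group. EPRS1 (ENSG00000136628, chromosome 1, 219968601 to 220046658) had 34.4 and 58.2 CPM in the HJJ_3_5 libraries, against 99.6 and 179 CPM in the DMSO libraries. Its log2 fold change was -1.59 ± 0.39 (adjusted p = 0.0566). It was called with DESeq2, with no filter and after removal of a GC and length trend (-1.25, adjusted p = 0.0424). RARS1, the arginine enzyme, averaged 51.4 ± 23.3 CPM with HJJ_3_5 and 104.3 ± 25.3 CPM with DMSO (-1.02 ± 0.37, adjusted p = 0.115). IARS1, for isoleucine, averaged 80.9 ± 29.8 CPM with HJJ_3_5 and 155 ± 35 CPM with DMSO (-0.94 ± 0.31, adjusted p = 0.0968). The threonine enzyme TARS1 (-0.78) and the second phenylalanine subunit FARSB (-0.66) did not pass the test either. Nor did the asparagine enzyme NARS1 (-0.49) and the leucine enzyme LARS1 (-0.46), whose groups overlapped. After removal of the GC and length trend NARS1 was at -0.30 and LARS1 at -0.12. In the mitochondrial group IARS2 (-0.79) and the tryptophan enzyme WARS2 (-0.71) were the lowest, and neither passed the test (adjusted p = 0.0931 and 0.115). DESeq2 called IARS1 (adjusted p = 0.0168), RARS1 (0.0233) and IARS2 (0.0218) lower. In all of these genes sample 2 was above sample 1 in both groups.

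The other cytosolic genes had small fold changes. AARS1 (alanine), KARS1 (lysine), CARS1 (cysteine) and YARS1 (tyrosine) had log2 fold changes between -0.002 and 0.065, with standard errors between 0.08 and 0.11. YARS1 had 211 and 207 CPM in the HJJ_3_5 libraries and 209.2 and 209.6 CPM in the DMSO libraries. HARS1 (histidine) had a log2 fold change of 0.16 ± 0.10 and QARS1 (glutamine) of -0.17 ± 0.11, and QARS1 was called lower after removal of the GC and length trend (-0.35, adjusted p = 0.0398). WARS1, the tryptophan enzyme that is also induced by interferon gamma, had 93.7 and 93.2 CPM with HJJ_3_5 and 66.3 and 73.5 CPM with DMSO, and did not pass the test (0.42 ± 0.11, adjusted p = 0.0597). WARS1 was called higher by DESeq2 and with library totals (adjusted p = 0.0262 in both). The remaining 12 mitochondrial genes had log2 fold changes from -0.40 for RARS2 to 0.57 for FARS2, and none of them passed the test. HARS2 was at -0.22, CARS2, VARS2, LARS2, NARS2 and TARS2 lay between 0.03 and 0.13, and SARS2, YARS2 and EARS2 between 0.22 and 0.26. AARS2 (0.42 ± 0.12, adjusted p = 0.0775) and FARS2 (0.57 ± 0.15, adjusted p = 0.0617) lay nearest to it, and both were called with library totals. FARS2 was also called by DESeq2 (adjusted p = 0.046).

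The cytosolic genes differed over a wide range in level per transcript length, here CPM per kilobase of the longest coding transcript. AARS1 had the highest level of all, 111.2 ± 2.3 with HJJ_3_5 and 106.3 ± 2.7 with DMSO. In DMSO libraries SARS1 (86.8 ± 7.0), QARS1 (86.4 ± 7.4) and GARS1 (82.0 ± 9.3) came next and did not differ beyond their spread. In HJJ_3_5 libraries QARS1 (76.9 ± 4.7) and VARS1 (75.6 ± 6.2) came next, SARS1 was in place 8 and GARS1 in place 10 of 35. FARSA moved to place 6 with HJJ_3_5, from place 14 with DMSO, and EPRS1 to place 28, from place 15. The levels of the mitochondrial genes ran from 2.57 ± 0.81 for WARS2 to 24.9 ± 7.4 for IARS2 with HJJ_3_5 and from 3.66 ± 0.21 for MARS2 to 43.0 ± 8.3 for IARS2 with DMSO, and they interleaved with those of the lower cytosolic genes. FARSB, the lowest cytosolic gene, was in place 34 with HJJ_3_5 and place 26 with DMSO. The summed level of the 19 cytosolic genes was 2439 and 2678 CPM with HJJ_3_5 and 2694 and 2968 CPM with DMSO, so the groups came close without overlapping. The 16 mitochondrial genes summed to 528 and 566 CPM with HJJ_3_5 and 547 and 602 CPM with DMSO, and these groups overlapped.

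**Figure D3:**
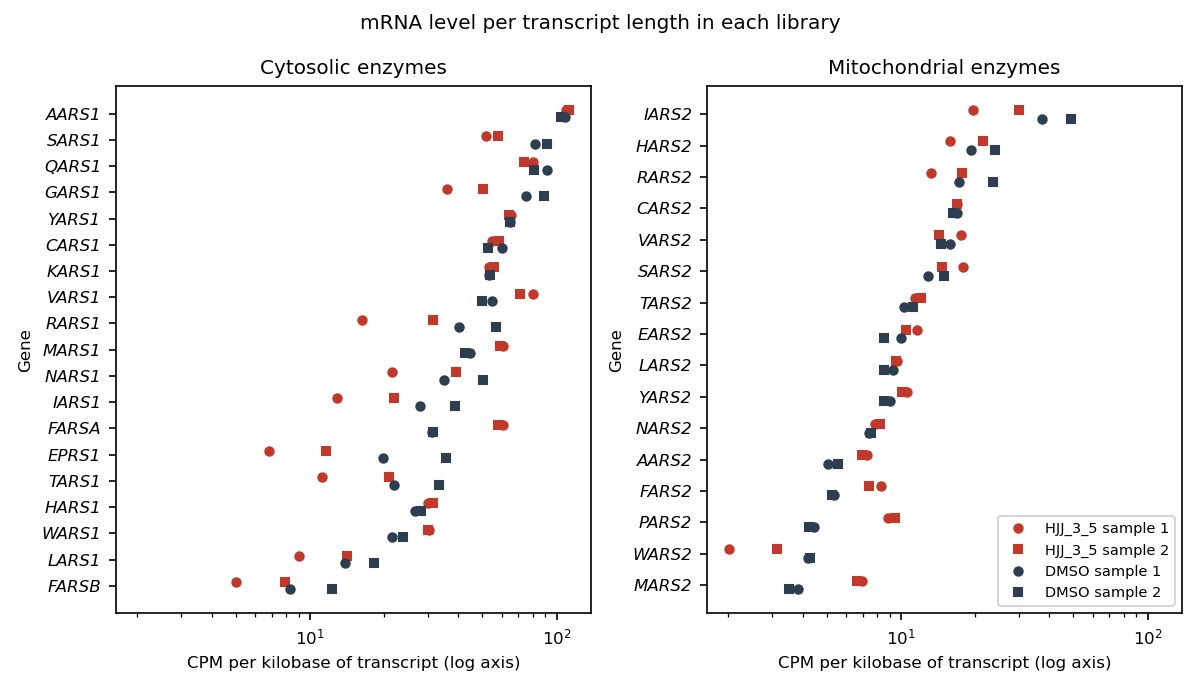
CPM per kilobase of transcript in each library (horizontal log axis), with genes in the order of their mean in DMSO libraries; red points are HJJ_3_5 and dark blue points DMSO, circles sample 1 and squares sample 2. AARS1 is at the top of the cytosolic genes in all 4 libraries, and FARSA stands out to the right of its DMSO points.

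Ratios between 2 genes of the same library do not depend on how libraries are scaled. The 2 subunit mRNAs of the phenylalanine enzyme moved apart. FARSA exceeded FARSB 7.37-fold and 4.47-fold in HJJ_3_5 libraries, against 2.31-fold and 1.57-fold in DMSO libraries. Their mean log2 ratio was 2.52 ± 0.51 with HJJ_3_5 and 0.93 ± 0.40 with DMSO. The ratio of EPRS1 to PARS2, the 2 genes for charging proline tRNAs, was 1.66 and 2.61 with HJJ_3_5, against 9.56 and 18.0 with DMSO. Neither set of ratios overlapped between groups. No GC and length trend was removed from these ratios. GC content was 60.3% for FARSA, 41.6% for FARSB, 43.2% for EPRS1 and 54% for PARS2. With the trend removed, log2 fold changes were 0.65 for FARSA and -0.41 for FARSB, against 0.92 and -0.66 before. Those of EPRS1 and PARS2 were -1.25 and 0.92, against -1.59 and 1.08. FARSB was called in neither of these 2 fits.

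Of 17 ratios of a cytosolic to a mitochondrial gene for the same amino acid, 15 did not overlap between groups, 11 being lower and 4 higher with HJJ_3_5. Single genes did not overlap in 69.0% of cases, and no such share was computed for ratios of other gene pairs, so the count of 15 has no background of its own. With 2 samples against 2 an exact permutation test cannot give a two-sided p below 0.33, so these ratios carry no test, and several of them share EPRS1 or FARS2. SARS1 exceeded SARS2 2.64-fold and 3.60-fold in HJJ_3_5 libraries, against 5.80-fold and 5.60-fold in DMSO libraries. MARS1 exceeded MARS2 8.37-fold and 8.52-fold with HJJ_3_5, against 11.3-fold and 11.7-fold with DMSO, so the mitochondrial methionine mRNA gained on the cytosolic one although both rose. The 4 ratios that were higher were those of FARSA to FARS2, HARS1 to HARS2, VARS1 to VARS2 and WARS1 to WARS2. WARS1 exceeded WARS2 16.7-fold and 10.5-fold with HJJ_3_5, against 5.63-fold and 6.13-fold with DMSO. HARS1 and HARS2 share exon bases on opposite strands, so their reads may be mixed. Among the ratios that did not overlap, that of IARS1 to IARS2 differed least, with 0.86 and 0.95 in HJJ_3_5 libraries and 0.98 and 1.04 in DMSO libraries.

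**Figure D4:**
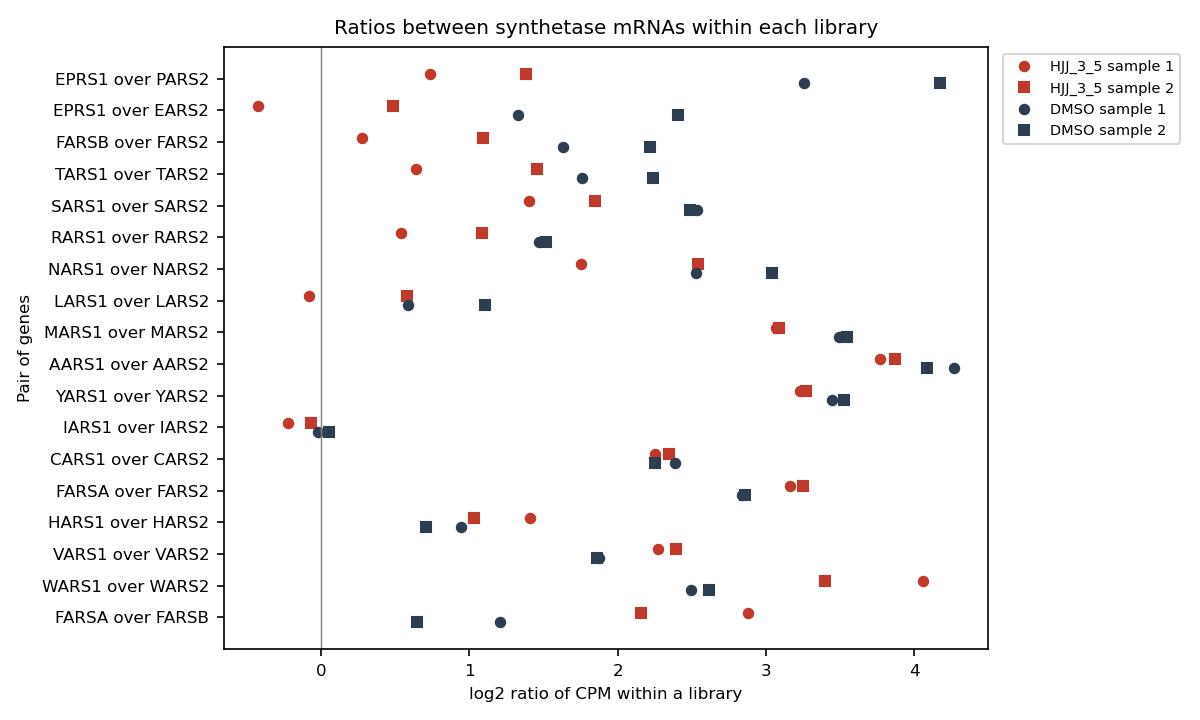
The log2 ratio of the CPM of 2 synthetase genes in each library (horizontal axis), for 17 cytosolic to mitochondrial pairs and for FARSA over FARSB; red points are HJJ_3_5 and dark blue points DMSO, circles sample 1 and squares sample 2. The red points of EPRS1 over PARS2 lie far to the left of the dark blue ones, and those of FARSA over FARSB far to the right.

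Fold changes of the synthetases went with the GC content of their transcripts. Spearman's rho over the 35 genes was 0.68, and it was 0.35 over the 14018 tested genes with a known transcript. The points of such a correlation share the same 4 libraries. The 11 synthetases with a GC content below 45%, a limit chosen after the values were seen, had a median log2 fold change of -0.71, and 10 of them were negative. The 24 others had a median of 0.15, and 5 were negative. In all tested genes the medians were -0.24 and 0.11 on the 2 sides of that limit. Differences between samples of the same group followed GC content as well, with a rho of -0.81 with HJJ_3_5 and -0.63 with DMSO for sample 2 minus sample 1 over the 35 genes. With the GC and length trend removed from each library, all 7 calls were kept, with log2 fold changes of 0.65 for FARSA, 0.31 for MARS1, 0.34 for VARS1, 0.92 for PARS2, 0.92 for MARS2, -0.77 for SARS1 and -0.92 for GARS1. EPRS1 and QARS1 were then called lower too, and the medians were -0.17 for cytosolic and 0.05 for mitochondrial genes. The part of library composition in the fold changes was not tested beyond this.

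**Figure D5:**
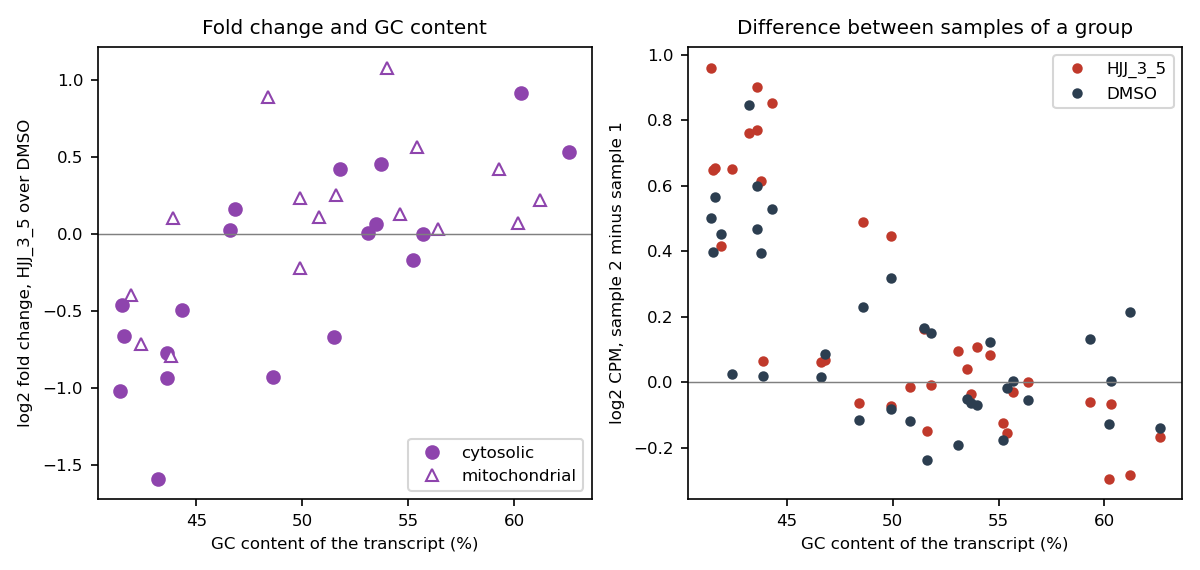
Left, the log2 fold change (HJJ_3_5 over DMSO) of each synthetase against the GC content of its longest coding transcript, with filled circles for cytosolic and open triangles for mitochondrial genes. Right, the log2 difference in CPM between sample 2 and sample 1 against the same GC content, in HJJ_3_5 (red) and DMSO (dark blue); most points below 45% GC lie well above 0 in both groups.

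Synthetases fall into 2 structural classes with unrelated catalytic folds. Of the 18 class I genes 3 were higher and 0 lower (16.7% called, median 0.018). Of the 16 class II genes 2 were higher and 2 lower (25% called, median 0.085). Of all genes tested 17.4% were called. EPRS1, which holds an enzyme of each class, is in neither count. An unadjusted p below 0.05 was reached by 4 lower class I genes, DESeq2 called 3 lower and limma-voom 0. For class II these counts were 2, 2 and 2. Of all 14180 genes 2765 were lower at that p, and DESeq2 and limma-voom called 2161 and 1212 lower. In the cytosol several synthetases assemble into a multi-synthetase complex. Of 7 of its enzymes, MARS1 was higher and 0 were lower (14.3% called, median -0.46). At an unadjusted p below 0.05, 3 of them were lower (EPRS1, IARS1 and RARS1), the same number as DESeq2 called and against 0 by limma-voom. Of the 12 cytosolic genes outside the complex 2 were higher and 2 lower (33.3% called, median 0.002).

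Of 13 cytosolic synthetases reported as ATF4 targets in mammalian cells, 2 were higher (MARS1 and VARS1) and 2 lower (SARS1 and GARS1), and their median was -0.46. Of the 6 other cytosolic genes FARSA was higher and 0 were lower (median -0.07). RARS1 was below an unadjusted p of 0.05, and DESeq2 called it lower, which limma-voom did not. A further list held ATF4 targets outside the family and ATF4 itself. Of its 28 tested genes 10 were higher and 4 lower (median 0.34). That is 50% called, against 17.4% of all genes tested, and whether this differs from the synthetases was not tested. GDF15, a stress cytokine, had 491 and 458 CPM with HJJ_3_5 and 170 and 158 CPM with DMSO (1.53 ± 0.10, adjusted p = 0.0244). The pseudokinase TRIB3 (1.59), the transcription factor ATF5 (2.41) and the serine synthesis enzyme PSAT1 (1.22) rose as well. DDIT3 (-1.82), the mTORC1 inhibitor DDIT4 (-1.34), the proline synthesis enzyme ALDH18A1 (-0.76) and the amino acid transporter SLC7A5 (-0.68) fell, and these 4 were picked for naming with their values known. ATF4 mRNA itself had 736 and 746 CPM with HJJ_3_5 and 679 and 644 CPM with DMSO and did not pass the test (0.16 ± 0.08, adjusted p = 0.222, and -0.05 after removal of the GC and length trend).

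ATF4 binds, with a C/EBP partner, a composite element whose letters are TGATGNAA. It was searched on both strands in RefSeq windows from 250 bases before to 50 after each gene's start (GRCh38.p14). Such windows were matched for 30 of the 35 synthetases, and LARS1, VARS1, YARS1, AARS2 and VARS2 had none. The element was found in 7 of 16 cytosolic and 1 of 14 mitochondrial genes, against 3.62% of 35116 windows of all genes. A gene with several starts had several windows, and none of these matches is shown to be bound. The matches are shown here with up to 20 bases on each side because they mark which synthetases carry the element near their start. Capitals mark the match, which reads TTGCATCA or TTTCATCA where it lies on the opposite strand of the gene.
AARS1 (chr16:70289666-70289713, minus strand): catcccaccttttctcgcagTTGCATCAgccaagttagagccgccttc
CARS1 (chr11:3057398-3057445, minus strand): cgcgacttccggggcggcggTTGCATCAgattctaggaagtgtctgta
GARS1 (chr7:30594825-30594872, plus strand): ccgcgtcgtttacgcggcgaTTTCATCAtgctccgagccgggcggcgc
IARS1 (chr9:92293683-92293730, minus strand): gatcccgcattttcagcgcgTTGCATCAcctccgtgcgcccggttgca
MARS1 (chr12:57488044-57488091, plus strand): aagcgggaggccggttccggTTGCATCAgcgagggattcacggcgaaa
NARS1 (chr18:57621807-57621842, minus strand): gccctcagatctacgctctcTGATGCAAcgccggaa
TARS1 (chr5:33440947-33440994, plus strand): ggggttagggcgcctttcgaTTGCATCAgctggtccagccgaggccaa
YARS2 (chr12:32756067-32756114, minus strand): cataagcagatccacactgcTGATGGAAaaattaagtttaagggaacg

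Positions count from the RefSeq start of the window that held the match. The match began 4 bases before that start in MARS1, 33 before it in GARS1 and 13 before it in IARS1. In AARS1 it lay farther upstream, from position -187. The MARS1 window (57487818 to 57488117) lay inside the GENCODE span of the gene, 57475445 to 57517569. GARS1 had another window (30594485 to 30594784), which did not reach its match. The 7 cytosolic genes with a match had log2 fold changes from -0.94 (IARS1) to 0.45 (MARS1), and the 2 called ones, MARS1 and GARS1, had opposite directions. SARS1, which fell, and FARSA, which rose, had no match in these windows.

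MARS2 is shown because it rose and its upstream 150 bases hold matches to 3 other elements. These are 2 NRF1 elements (the 10-letter runs in capitals, with any base in the sixth place, in 5.78% of all windows), 1 ETS element (CCGGAAG, in 10.26%) and 1 E-box (CACGTG, in 7.26%), none overlapping another. PARS2, the other mitochondrial gene that rose, held an NRF1 element and ETS elements. SARS1, which was called lower (-0.67), held NRF1 and ETS elements too. The remaining genes with an NRF1 element had negative log2 fold changes and were not called. These were TARS1 (-0.78), IARS2 (-0.79) and FARSB (-0.66). Over the family, ETS elements were found in 9 of 16 cytosolic and 7 of 14 mitochondrial genes, NRF1 elements in 3 and 3, and E-boxes in 1 and 3. Capitals mark the matches.
MARS2 (chr2:197705219-197705368, plus strand): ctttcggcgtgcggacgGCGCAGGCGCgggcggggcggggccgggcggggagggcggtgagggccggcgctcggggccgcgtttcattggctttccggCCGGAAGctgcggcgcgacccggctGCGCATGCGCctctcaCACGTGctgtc

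Genes that act beside the synthetases were taken as lists. Of 11 partners, among them the complex scaffolds AIMP1, AIMP2 and EEF1E1 and the mitochondrial glutamine amidotransferase subunits GATB, GATC and QRSL1, edgeR called 0. At an unadjusted p below 0.05, 3 of them were higher, DESeq2 called 2 higher and limma-voom 0. The same counts over all 14180 genes were 2813, 1839 and 1281. Of 24 genes of tRNA processing and export 4 were higher and 0 lower (16.7% called, median 0.37). Without adjustment 13 were higher and 0 lower at a p below 0.05, where 2813 of all 14180 genes were higher. DESeq2 and limma-voom called 8 and 4 of them higher and 0 lower, against 1839 and 1281 of all genes higher. After removal of the GC and length trend 11 were higher, against 1924 of all 14180 genes. With library totals 13 were higher, against 2614 of all genes. POP1, a subunit of RNase P, which trims the 5' end of tRNAs, had 41.5 and 40.3 CPM with HJJ_3_5 and 16.5 and 16.2 CPM with DMSO (1.32 ± 0.11, adjusted p = 0.0244). The RNase P subunit RPP25 (1.46) and the tRNA 3' processing endonuclease ELAC1 (1.45) rose too. XPOT, which exports tRNAs from the nucleus, had a log2 fold change of -0.05 ± 0.21 and was called higher after removal of the GC and length trend (0.40, adjusted p = 0.0381).

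Charged tRNAs reach the ribosome on elongation factors. The 7 genes listed for cytosolic elongation include EEF2K, a kinase that acts on EEF2 and is not itself an elongation factor. Of these 7, EEF1A1, which delivers the charged tRNA, was lower and 0 were higher. It had 2515 and 3351 CPM with HJJ_3_5 and 8145 and 12384 CPM with DMSO (-1.81 ± 0.26, adjusted p = 0.0293). EEF1A1 has many processed pseudogenes that can take its reads, so its counts are uncertain. EEF2K was higher at an unadjusted p below 0.05, and DESeq2 and limma-voom called 0 higher. After removal of the GC and length trend 3 of the 7 were lower and 1 higher, against 1648 lower and 1924 higher of all 14180 genes. Of 6 mitochondrial factors TUFM, the counterpart of EEF1A1, was higher (0.47 ± 0.10, adjusted p = 0.0417) and 0 were lower. TUFM was not called after removal of the GC and length trend (0.24, adjusted p = 0.0576). TSFM, the exchange factor of TUFM, was not called (0.60) but was called higher after that removal (0.72, adjusted p = 0.0397). MTIF3, a mitochondrial initiation factor, was lower at an unadjusted p below 0.05 (-0.87). DESeq2 called 2 of the 6 higher and 1 lower, and limma-voom 1 higher and 0 lower.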

How the data were processed

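The authors deposited raw gene counts with a column for each sample, per the file headers. The sources used here give no aligner, counter or strand setting. Mouse builds, GRCm38 and mm10, are named in the submitters' processing notes, although all rows are human Ensembl identifiers, and which build was counted is not known. Positions, transcript length and GC content come from GENCODE 29 on GRCh38, and promoter windows from RefSeq.

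Genes were filtered with filterByExpr (minimum count 10, minimum total 15), which left 14180, and scaled by TMM. The 2 groups were compared in edgeR 4.0.16 (R 4.3.3) with the two-sided quasi-likelihood test, with group as the term and 2 residual degrees of freedom, adjusted by Benjamini-Hochberg over all genes. Alternatives used DESeq2 1.42.0, limma-voom (limma 3.58.1), other scalings and filters, a replicate block, a GC and length trend (natural splines, 4 degrees of freedom) as an offset, and each library left out. On simulated counts with 200 changed genes edgeR recovered 53% of those changed 2-fold and 93% of those changed 4-fold. It also called 7 unchanged genes. The simulated counts were independent, without a GC trend or shared deviations of same-numbered samples, so these rates may not hold for the real counts. All 35 synthetases are reported. From each other list up to 4 called genes with the smallest p are named, and others only where a statement needs them. Not every gene that this rule names is reported here. The members and lists were chosen with earlier results of these data known. Of the 35 genes, 15 share exon bases with another gene and 11 have a pseudogene named after them, so some reads may be misassigned.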

Additional observations from a re-analysis of the deposited data

How the results depend on the processing

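The 7 called synthetases kept their direction under every alternative run. With all 4 libraries, FARSA, MARS1, VARS1, PARS2, MARS2 and SARS1 stayed called under 9 of 9 alternatives at the 0.05 threshold, and GARS1 under all but library totals. The scaling and filter alternatives left counts within 1.5 times of the main ones unless named here. At an adjusted p below 0.01 edgeR called 0 genes in either direction, among them 0 cytosolic and 0 mitochondrial synthetases, while 5578 genes had an unadjusted p below 0.05.

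With library totals 2614 genes were higher, 1 cytosolic gene was lower and 4 mitochondrial genes were higher. DESeq2 called 2161 genes lower, with 5 cytosolic and 1 mitochondrial gene among them. Removal of the GC and length trend gave 1924 genes higher and 1648 lower, with 4 cytosolic genes among the lower ones. Leaving out 1 library at a time gave between 0 and 976 genes higher and between 0 and 1716 lower, between 0 and 2 cytosolic genes higher and 0 and 5 lower, and between 0 and 2 mitochondrial genes in each direction. The cause of these differences was not tested. The fits with a library left out have 1 residual degree of freedom, and the part of this in the number of calls was not tested.

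Samples 1 and 2 share only a number between groups. Deviations of same-numbered samples correlated with r = 0.354 over 10580 genes, from 2 pairs. With the replicate block 2077 genes were higher and 2540 lower, with 9 cytosolic genes (EPRS1, FARSB, GARS1, IARS1, LARS1, NARS1, RARS1, SARS1 and TARS1) and 2 mitochondrial genes (IARS2 and RARS2) lower. The block together with removal of the GC and length trend gave 2554 genes higher and 2401 lower, with 5 cytosolic genes higher, 8 cytosolic lower and 1 mitochondrial lower.

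Among single synthetases, log2 fold changes turned sign in genes that were not called. The cytosolic median also turned, to 0.016 with library totals, and the difference CARS1 minus CARS2 (-0.024) turned to 0.051 and, with the replicate block, 0.053 after removal of the GC and length trend, to 0.047 without DMSO 1 and to 0.023 without HJJ_3_5 1. After removal of the GC and length trend, without and with the replicate block, the log2 fold change was -0.0492 and -0.0505 for AARS1, -0.128 and -0.129 for CARS1, -0.18 and -0.182 for CARS2, -0.0654 and -0.0579 for SARS2, -0.0378 and -0.0395 for TARS2, and -0.118 and -0.12 for VARS2. CARS1 also turned to -0.000314 with relative log expression factors and -0.000302 with DESeq2. Library totals gave 0.0156 for QARS1 and 0.185 for YARS1, and YARS1 was 0.00456 with at least 10 counts in every library. Leaving out 1 library at a time gave -0.0885 to 0.102 for CARS1, -0.0126 to 0.0526 for KARS1, -0.0177 to 0.00898 for YARS1 and -0.0835 to 0.208 for VARS2. Every synthetase had at least 174 counts in each library, and the limits set by depth and by the number of samples were not compared.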
